A study of Mus musculus with 4 samples.

Results

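Chromatin loops were examined at 10 genes of the Hippo pathway in mouse granulosa cells. The genes were the transcription factors Tead1, Tead2, Tead3 and Tead4, their coactivators Yap1 and Wwtr1 (TAZ), the kinases Lats1 and Lats2, and the target genes Ccn1 (Cyr61) and Ccn2 (Ctgf). A called loop was taken when 1 of its anchors, the paired bins that it joins, lay within 10 kb of a gene body (an anchored loop). A loop that spanned the whole gene was also taken when its anchors were less than 500 kb apart (an enclosing loop). Of 30437 loop calls, 54 met this rule, 41 of them anchored and 13 enclosing. They fell at 7 of the 10 genes, out of 21627 protein-coding genes placed, and 3 genes (Tead2, Tead3 and Lats1) had none.

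Loops were mapped by Micro-C, which cuts crosslinked chromatin with micrococcal nuclease and sequences the ligated ends. All mice were 21 days old and had been given equine chorionic gonadotropin (eCG, or PMSG), a driver of follicle growth, at 5 IU. The interval after eCG is 46 h in the sample characteristics and 44 h in the treatment protocol. The PMSG group (2 libraries) was collected with no hCG dose labelled, as the 0 h time. The hCG group (2 libraries) was collected 6 h after a further 5 IU of human chorionic gonadotropin (hCG), which acts as the luteinizing hormone surge does at ovulation. Cells were released by puncture of the ovaries, which can carry over other ovarian cells. The labels call the libraries separate samples without saying whether they came from separate mice, so p-values measure only the spread between these samples.

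In the Hippo pathway, the kinases Stk3 and Stk4 act on Lats1 and Lats2, which phosphorylate Yap1 and Wwtr1 and hold them out of the nucleus. When the kinases are inactive, both coactivators enter the nucleus, bind TEAD factors and switch on genes such as Ccn1 and Ccn2, which encode secreted matrix-associated proteins. In the ovary the pathway is known for restraining follicle growth, and Ccn2 is known to be made by granulosa cells.

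The 4 lists held 6533 to 8305 loops, and the contacts at their called pixels summed to between 272470 and 393852. A pixel is the pair of anchor bins, 5, 10 or 25 kb wide, and its observed contact count is set against a locally expected count from a surrounding ring (the donut). Loop strength here is observed over that expected count. The median strength of all loops was 3.68 and 4.16 before hCG and 3.96 and 3.92 after it. A loop list shows contact, not expression, so the cell type labelled could be checked only as to which marker genes had loops. Over all genes 68.0% had a loop, so these counts tell cell types apart poorly. Of 11 granulosa markers, 11 had a loop, with 37, 27, 29 and 34 calls in PMSG replicates 1 and 2 and hCG replicates 1 and 2. Loops were also called at 8 of 8 theca and stroma markers (13 to 18 calls a library), 4 of 5 endothelial (4 to 6), 3 of 4 immune (1 or 2), 3 of 4 oocyte (2 or 3) and 3 of 3 epithelial markers (4 to 6). The part of other ovarian cells in the results was not tested.

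Upstream sequences of 3 genes are shown because they let the anchors be read against the starts of the Hippo genes: Ccn1, where an anchor covers nearly the whole stretch in 1 library, and Wwtr1 and Lats2, whose lost and gained loops lay away from the start. Each is the 250 bases upstream of an annotated start, 5′ to 3′ on the gene's own strand, from RefSeq on GRCm38.p6, the assembly of mm10. Capitals mark the TEAD motif GGAATG (or its reverse complement CATTCC) and the core letters of the cAMP response element, TGACG (or CGTCA).
Ccn1 (chr3:145649986-145650235, minus strand): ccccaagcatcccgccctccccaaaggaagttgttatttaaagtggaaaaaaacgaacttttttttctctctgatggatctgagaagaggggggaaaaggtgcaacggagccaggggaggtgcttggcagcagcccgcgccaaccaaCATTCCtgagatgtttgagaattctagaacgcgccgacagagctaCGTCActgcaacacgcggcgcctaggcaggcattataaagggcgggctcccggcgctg
Wwtr1 (chr3:57575911-57576160, minus strand): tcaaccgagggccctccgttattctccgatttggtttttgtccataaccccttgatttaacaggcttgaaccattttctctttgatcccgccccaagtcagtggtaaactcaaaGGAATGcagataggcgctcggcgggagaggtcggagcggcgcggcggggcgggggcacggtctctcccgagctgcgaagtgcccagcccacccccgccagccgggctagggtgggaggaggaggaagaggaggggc
Lats2 (chr14:57746124-57746373, minus strand): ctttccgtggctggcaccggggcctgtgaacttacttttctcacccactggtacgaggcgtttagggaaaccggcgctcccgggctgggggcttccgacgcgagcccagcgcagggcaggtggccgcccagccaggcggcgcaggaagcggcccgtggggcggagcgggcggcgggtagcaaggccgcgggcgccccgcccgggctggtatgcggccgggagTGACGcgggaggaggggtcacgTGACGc
The Ccn1 stretch held the TEAD motif 103 to 98 bases before the start and TGACG, as CGTCA, 58 to 54 bases before it. The Wwtr1 stretch held a TEAD motif 136 to 131 bases before the start, and the Lats2 stretch held TGACG at 2 places, 28 to 24 and 6 to 2 bases before it.

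Sequences were found for 7 of the 10 genes, with 11 annotated starts, and the others were Tead1, Tead4 and Ccn2. The TEAD motif also lay upstream of Yap1 (141 to 136 bases before the start) and of 2 of the 3 starts of Tead3, and these letters were not in the windows of Tead2, Lats1 and Lats2. Searched on both strands, the TEAD motif was present in 12.6% and TGACG in 17.8% of 32851 promoter windows of this length. The AP-1 site TGANTCA (6.75% of windows) and the CArG box of serum response factor (1.47%) did not occur in the 11 windows. None of these searched letter patterns overlap one another in the sequences shown. None of the 11 starts lay inside a loop anchor in any library. Of 32619 annotated starts genome-wide, 23.7% lay in an anchor in at least 1 library. The 11 leave out Tead1, Tead4 and Ccn2, so this contrast does not hold for all the Hippo genes. The whole body of Ccn2, and so its start, lay in the anchor 24590001 to 24600000 in PMSG replicate 2 and both hCG libraries. The lower-numbered end of Tead1 and the higher-numbered end of Tead4 also lay in anchors. Among the 7 genes with sequences found, anchored loops were called at Wwtr1, Lats2 and Ccn1. Their anchors lay at the far end of the gene, in its interior or beside it.

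Loops at the 10 genes numbered 13 and 14 in PMSG and 14 and 13 in hCG. Per 1000 loops of a list this was 1.57 and 2.14 in PMSG and 1.83 and 1.64 in hCG, so the groups overlapped. The means were 1.85 ± 0.408 and 1.73 ± 0.133 (SD, n = 2 each), a difference of -0.122 (exact permutation test, two-sided, p = 1). The sign of this difference turned under other settings, to 0.118 with anchored loops alone and to 0.167 without PMSG replicate 2, the shortest list. The smallest p that 2 libraries against 2 allow is 0.333.

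**Figure D1:**
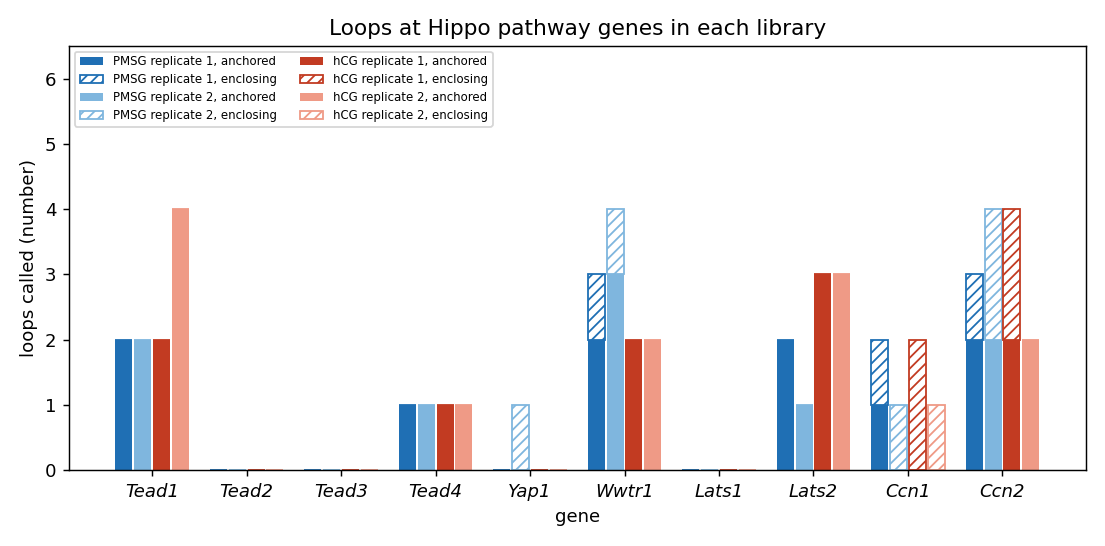
Number of loops called at each of the 10 genes (vertical axis, loops) in each library, with filled bars for anchored and hatched bars for enclosing loops. Tead1 has 2 calls in 3 libraries and 4 in hCG replicate 2, where 1 loop was called at 2 nearby pixels. Lats2 has 3 in both hCG libraries against 2 and 1 in PMSG, and Tead2, Tead3 and Lats1 have none.

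The median strength of the loops at these genes was 3.27 and 3.79 in PMSG and 3.84 and 4.64 in hCG. Both hCG values lay above both PMSG values, by means of 4.24 ± 0.564 against 3.53 ± 0.367 (SD, n = 2 each), a difference of 0.710 (exact permutation test, two-sided, p = 0.333, the smallest possible). With 10 kb loops alone the difference was 0.667, and with the largest of the 4 local expectations in place of the donut it was 0.409. In both of these settings the groups were no longer separated (exact permutation test, two-sided, p = 0.667 for each). Strength depends on bin size, and the 25 kb loops alone, a setting chosen after seeing the data, gave the opposite sign (-0.347). The loops at the Hippo genes had median spans of 210 and 262.5 kb in PMSG and 205 and 190 kb in hCG. Over all loops the median spans were 175 and 195 kb in PMSG and 150 and 160 kb in hCG. Shorter spans in hCG were therefore not particular to these genes.

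Calls from different lists were joined into 1 distinct loop when both anchor midpoints lay within 20 kb. The 54 calls then formed 23 distinct loops, out of 12920 in all. A distinct loop is termed gained when both hCG libraries and no PMSG library held it, lost in the reverse case, and common when all 4 did. The lists give values at called pixels alone, so a loop missing from a list shows that it was not called there, not that contact was absent. At the Hippo genes 3 of 23 distinct loops were gained (13.0%, against 5.05% of all distinct loops), 1 was lost (4.35%, against 3.8%) and 8 were common (34.8%, against 29.9%). A further 8 were called in 1 library (34.8%, against 40.0% of all), and 3 in 2 or 3 libraries of both groups. The gained loops lay at Tead1, Lats2 and Ccn2 and the lost loop at Wwtr1. By gene, 3 of the 7 looped genes had a gained loop, where 9.79% of 14714 looped genes did, and 1 had a lost loop, where 7.93% did. Genes with more loops have more chances of either call. Among the 5 Hippo genes with 3 or more distinct loops, 3 had a gained and 1 a lost loop, against 16.9% and 12.7% of 5624 such genes. These shares rest on few genes and have no test. The marker lists also exceeded these backgrounds in places, with a gained loop at 4 of 11 looped granulosa, 2 of 4 endothelial and 2 of 8 theca and stroma markers, and a lost loop at 3 of 11, 0 of 4 and 3 of 8.

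For the 4 gained or lost loops, the other group had no call in a neighbouring bin. A gap above the matching distance follows from the definition, and contact at pixels that were not called is unknown. The closest call in the other group's lists lay 72.5 kb away at Ccn2, 177.5 kb at Tead1, 190 kb at Wwtr1 and 250 kb at Lats2, taking the larger of the gaps at both anchors. Over all 1143 gained or lost loops the median of this distance was 100 kb, and 10.5% had such a call within 25 kb.

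Tead1 encodes TEAD1, 1 of the DNA-binding partners of Yap1 and Wwtr1, and its gene spans 227 kb (chr7:112679356-112906784). Its most constant loop (chr7, 460 to 500 kb) joined a site at Micalcl to the interior of Tead1. It held 38 contacts over 12.8 expected (2.96) in PMSG replicate 1 and 25 over 5.88 (4.25) in PMSG replicate 2. It held 23 over 6.12 (3.76) in hCG replicate 1, and in hCG replicate 2 it was called at 2 nearby pixels with 41 over 8.04 (5.10) and 30 over 7.57 (3.96). The ranges of the groups overlapped. With the gene-side anchor in the bin 112860001 to 112870000, the far anchor began at 112400001 in both PMSG libraries and at 112390001, the next bin out, in both hCG libraries. The second pixel of hCG replicate 2 lay outside these, from 112370001 to the bin that begins at 112870001.

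The gained loop at Tead1 joined 112450001 to 112475000, at Parva, to 112675001 to 112700000, the bin that holds the lower-numbered end of Tead1, over 225 kb. Parva encodes parvin alpha, an actin-binding protein of focal adhesions. The loop held 91 contacts over 46.0 expected (1.98, 95% exact Poisson interval 1.59 to 2.43) in hCG replicate 1 and 128 over 57.8 (2.21, 1.85 to 2.63) in hCG replicate 2. Among the 25 kb loops of each list these strengths ranked low, at percentiles 6.07 and 25. In hCG replicate 1 its largest FDR over the 4 local backgrounds was 0.00997, just inside the stricter limit of 0.01. Intervals here and below cover counting error only.

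The other loops at Tead1 were less widely called under the rule. PMSG replicate 1 had a 400 kb loop between another bin at Parva and the gene interior with 27 contacts over 3.48 (7.75). The list of hCG replicate 2 held a 125 kb loop with both anchors inside Tead1, with 122 contacts over 62.2 (1.96). A loop of 210 to 215 kb that runs outward from beyond the upper end of Tead1 to 113130001 was called in all 4 libraries, but its anchor met the 10 kb limit in PMSG replicate 2 alone, with 22 contacts over 2.25 (9.79). In PMSG replicate 1 and hCG replicates 1 and 2 the anchor lay 1 bin farther off, with 36 over 4.45 (8.09), 17 over 1.96 (8.66) and 34 over 3.02 (11.3). The groups overlapped in strength.

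**Figure D2:**
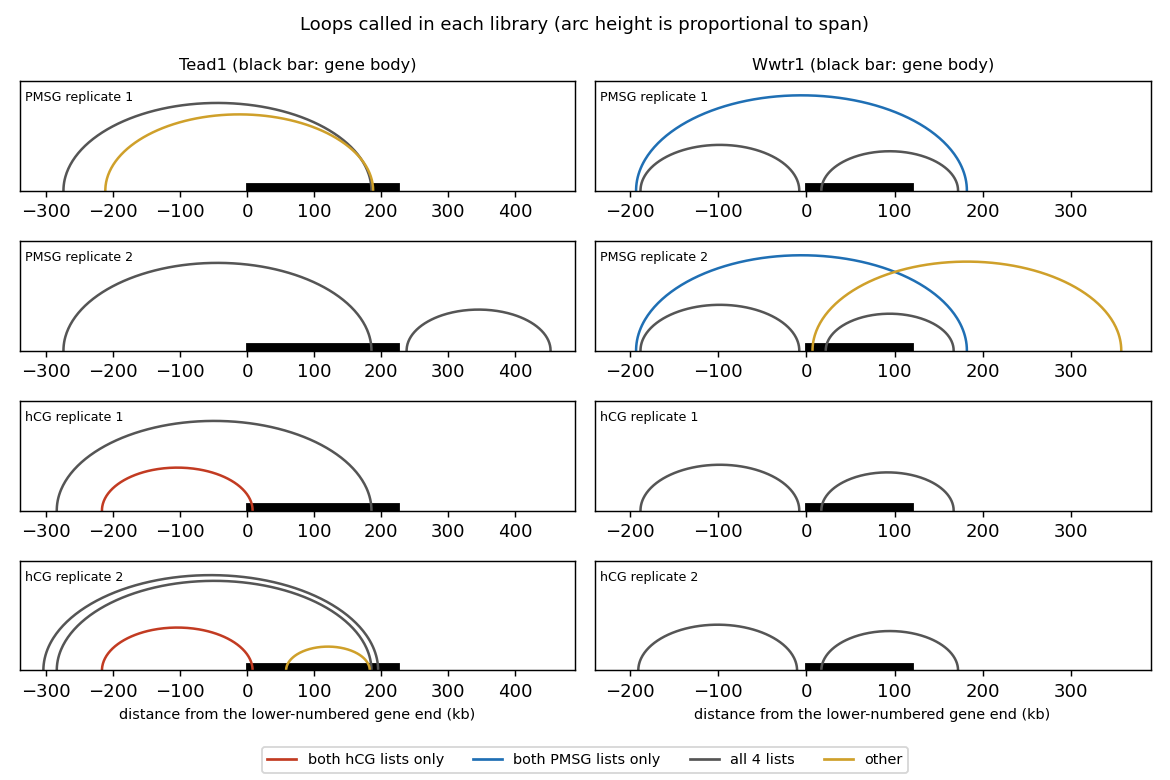
Loops called at Tead1 and Wwtr1 in each library as arcs from anchor midpoint to anchor midpoint (horizontal axis, kb from the lower-numbered gene end), coloured by which lists held the distinct loop. The red 225 kb arc at Tead1 is in both hCG libraries and the blue 375 kb arc at Wwtr1 in both PMSG libraries. The 215 kb arc right of Tead1 is drawn where it met the 10 kb rule, although all 4 lists held it.

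Tead4, the TEAD factor best known from the trophectoderm of the early embryo, lies at chr6:128227143-128300813. It had 1 loop, which joined both ends of the gene in every library. In 10 kb bins (70 kb span) it held 62 contacts over 19.0 (3.27) in PMSG replicate 1, 39 over 10.2 (3.82) in PMSG replicate 2 and 34 over 9.12 (3.73) in hCG replicate 1. In hCG replicate 2 it was called in 5 kb bins (75 kb span) with 22 over 2.82 (7.80), and strengths from bins of different width are not compared. The first 3 values lay within each other's counting intervals, 2.51 to 4.19, 2.71 to 5.22 and 2.58 to 5.21.

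Tead2 (chr7:45215792-45233468) and Tead3 (chr17:28331671-28350805), the other TEAD factors, had no loop under the rule. The anchor nearest to Tead2 lay 10.8 kb away in PMSG replicate 1 and 15.8 kb away in hCG replicate 1, against 75.8 kb in the other two libraries. An 850 kb loop, too long for the rule, enclosed Tead2 in PMSG replicate 1 with 48 contacts over 15.0 (3.19) and in hCG replicate 2 with 33 over 9.56 (3.45). The nearest anchor to Tead3 lay 21.7 kb away in every library.

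The coactivators differed in how many loops they had. Yap1 (chr9:7931999-8004638) had a single call, an enclosing loop of 490 kb in PMSG replicate 2 with 18 contacts over 3.15 (5.72, 95% exact Poisson interval 3.39 to 9.04), and its nearest anchor lay 32.0 kb away in all 4 libraries. Wwtr1 (chr3:57455644-57575910), which encodes TAZ, had 3, 4, 2 and 2 calls in PMSG replicates 1 and 2 and hCG replicates 1 and 2.

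A common loop of 180 kb joined 57265001 to 57270000 with 57445001 to 57450000, beside the 3′ end of Wwtr1 and next to Tm4sf4, a tetraspan membrane protein gene. In 5 kb bins it held 22 contacts over 2.07 (10.6) and 18 over 1.85 (9.73) in the PMSG libraries and 13 over 1.02 (12.7) in hCG replicate 1. In hCG replicate 2 it was called in 10 kb bins, with 25 over 4.41 (5.66). Its strength ranked at percentile 81.0 or higher among loops of its bin size in each list, so it was strong for its bin size before and after hCG.

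A second common loop of 145 to 155 kb ran from the interior of Wwtr1, 57470001 to 57480000 over the libraries, across the start to a site at 57620001 to 57630000. It held 34 contacts over 4.18 (8.14) and 16 over 2.92 (5.49) before hCG, and 24 over 2.65 (9.07) and 23 over 3.24 (7.09) after it, all in 5 kb bins. PMSG replicate 2 was lowest and the groups overlapped.

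The lost loop of Wwtr1 joined sites at or next to the outer anchors of these common loops. It linked 57250001 to 57275000 with 57625001 to 57650000, next to Commd2, over 375 kb, and so enclosed the gene. It held 44 contacts over 13.4 (3.29, 95% exact Poisson interval 2.39 to 4.42) in PMSG replicate 1 and 42 over 11.2 (3.76, 2.71 to 5.08) in PMSG replicate 2, at percentiles 83.2 and 87.8 of the 25 kb loops. Its right-hand bin held the outer anchor of the second common loop in PMSG replicate 1 and hCG replicate 2, and lay just beyond it in the other two libraries. Neither hCG list held it, while both inner loops were called in both hCG libraries. PMSG replicate 2 also had a 350 kb loop from the 3′ end of Wwtr1 to Rnf13, a ubiquitin ligase gene, with 36 contacts over 12.6 (2.85).

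The kinase gene Lats2 (chr14:57689662-57746212, minus strand) had 2 and 1 calls in PMSG, against 3 in each hCG library, and all of them met the gene at or beside its 3′ end, which in 25 kb bins shares an anchor (57675001 to 57700000) with Xpo4, an exportin gene. The common loop reached 220 to 230 kb to Micu2, which encodes a regulator of mitochondrial calcium uptake. It held 37 contacts over 12.1 (3.05) in PMSG replicate 1 and 29 over 6.83 (4.24) in hCG replicate 1, both in 10 kb bins. PMSG replicate 2 called it in 25 kb bins with 95 over 30.1 (3.16) and hCG replicate 2 in 5 kb bins with 16 over 1.83 (8.73), so the groups cannot be ordered by it.

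A shorter loop of 125 kb from the same anchor to Sap18, Ska3, Mrpl57 and Zdhhc20 was called in PMSG replicate 1 with 149 contacts over 73.4 (2.03) and in hCG replicates 1 and 2 with 98 over 44.6 (2.20) and 117 over 53.2 (2.20). The gained loop of Lats2 was the longest at any of these genes, at 1425 kb, and ended at 59100001 to 59125000, at 1700129C05Rik. It held 29 contacts over 4.44 (6.53, 95% exact Poisson interval 4.37 to 9.37) in hCG replicate 1 and 29 over 6.26 (4.64, 3.10 to 6.66) in hCG replicate 2. These strengths ranked at percentiles 99.5 and 97.2 among 25 kb loops. The closest PMSG call ended at the same far bin and began 250 kb nearer, at 57925001, with 41 contacts over 11.8 (3.46) in PMSG replicate 1.

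Lats1 (chr10:7681200-7716461), the other Lats kinase gene, had no loop, and its nearest anchor lay 163.5 kb away in all 4 libraries. The shares of genes without a loop were 30% of the Hippo genes and 32.0% of all genes.

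Ccn1 and Ccn2 are short target genes, so a single 25 kb bin can hold either one whole. Ccn1 (chr3:145646971-145649985, minus strand) lay inside a common enclosing loop of 320 to 325 kb from Znhit6 to a site at Ddah1, the gene of an enzyme that breaks down methylated arginines. It held 23 contacts over 3.38 (6.80) in PMSG replicate 1 and 18 over 3.12 (5.78) in hCG replicate 2 in 5 kb bins. In 10 kb bins it held 45 over 6.87 (6.55) in PMSG replicate 2 and 35 over 6.01 (5.82) in hCG replicate 1. At each bin size the hCG value lay below the PMSG value, within the counting intervals (4.31 to 10.2 against 3.42 to 9.13, and 4.78 to 8.77 against 4.05 to 8.09).

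The only anchored call at Ccn1 came from PMSG replicate 1, 150 kb from 145650001 to 145675000 into Ddah1, with 142 contacts over 80.9 (1.75). It ranked at percentile 0.144 of that list's 25 kb loops, and its anchor began 0.016 kb upstream of the annotated start, so that it covered almost all of the Ccn1 stretch printed above. A 150 kb loop that encloses Ccn1 was called in hCG replicate 1 with 95 contacts over 47.6 (2.00). A loop of 500 kb, at the limit of the rule and left out by it, enclosed Ccn1 in PMSG replicates 1 and 2 and hCG replicate 2, with 86, 64 and 68 contacts (strengths 3.44, 4.14 and 3.05).

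Ccn2 (chr10:24595442-24598683) had the most distinct loops of the 10 genes, at 6, and 3, 4, 4 and 2 calls. Its common loop ran 180 to 190 kb from a site at 24400001 to 24415000, with no protein-coding gene within 10 kb, to the gene. In 10 kb bins it held 37 contacts over 11.5 (3.21) in PMSG replicate 2, 49 over 12.5 (3.91) in hCG replicate 1 and 53 over 14.6 (3.63) in hCG replicate 2. In PMSG replicate 1 it was called in 5 kb bins with 23 over 5.43 (4.24), and that anchor stopped 0.441 kb short of the gene.

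The gained loop of Ccn2 reached 100 kb to a nearer site without a protein-coding gene within 10 kb. It held 35 contacts over 11.6 (3.03, 95% exact Poisson interval 2.11 to 4.21) in hCG replicate 1, from the 10 kb bin 24490001 to 24500000. In hCG replicate 2 it held 160 over 80.6 (1.99, 1.69 to 2.32), from the 25 kb bin 24475001 to 24500000. These ranked at percentiles 21.9 and 7.25 for their bin sizes, among the weaker calls of both lists.

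The remaining loops at Ccn2 were called in at least 1 PMSG library each. The site 24400001 to 24420000 that contacts Ccn2 also contacted Enpp1, an ectoenzyme gene beyond Ccn2, over 210 to 220 kb. This enclosing loop held 42 contacts over 13.5 (3.11) and 36 over 10.1 (3.56) in the PMSG libraries and 45 over 10.9 (4.11) in hCG replicate 1. An enclosing loop of 450 kb from Stx7 to Enpp1 was called in PMSG replicate 2 with 41 over 13.5 (3.03) and in hCG replicate 1 with 48 over 15.6 (3.08). Anchored loops from the bin 24600001 to 24625000 to Moxd1, a monooxygenase gene, were called once each. This bin lies beyond the upper end of Ccn2 and holds none of the gene. These loops count only through the 10 kb window. They spanned 400 kb in PMSG replicate 1 with 53 over 25.3 (2.10) and 300 kb in PMSG replicate 2 with 77 over 30.7 (2.51). In hCG replicate 2 the only loops called at Ccn2 were the common and the gained one.

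**Figure D3:**
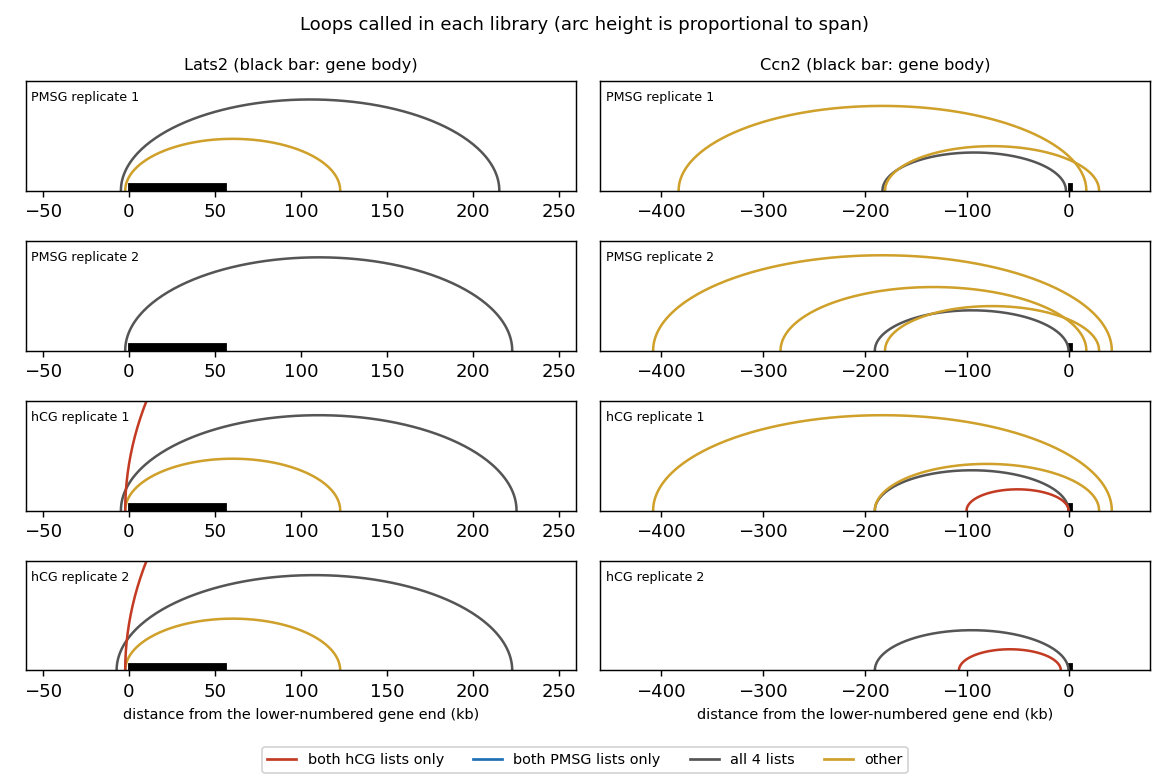
Loops called at Lats2 and Ccn2 in each library as arcs from anchor midpoint to anchor midpoint (horizontal axis, kb from the lower-numbered gene end), coloured by which lists held the distinct loop. The red 1425 kb arc at Lats2 leaves the frame in both hCG libraries, and the red 100 kb arc at Ccn2 is in both hCG libraries.

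Strength was tested across loops with edgeR's quasi-likelihood test, offset by the log donut expectation, and Benjamini-Hochberg adjustment. Of 435 pixels with identical anchors in all 4 libraries, none lay at a Hippo gene, 0 passed an adjusted p of 0.05 and 29 had an unadjusted p under 0.05 (DESeq2 gave 0 and 1). A fit over the 1366 distinct loops called in 1 bin size in all 4 lists, chosen after seeing the data, held 3 loops at Hippo genes and called 0 of 1366 (0%), with 91 at an unadjusted p under 0.05 (DESeq2 gave 0 and 5). Both fits took only loops called in all 4 lists, so they cannot bear on the gained or lost loops. In the fit over 1366 loops the median log2 difference of all loops, hCG minus PMSG, was 0.15 with the donut offset. It was 0.00 in size with TMM scaling in its place. The Micalcl loop of Tead1 differed by 0.42 (SE 0.26, adjusted p = 0.809), the outward loop beyond Tead1 by 0.24 (SE 0.27, adjusted p = 0.909) and the loop from the interior of Wwtr1 by 0.18 (SE 0.29, adjusted p = 0.930). For the Micalcl loop the fit used the stronger of the 2 pixels called in hCG replicate 2. The outward loop turned to -0.06 with TMM scaling.

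**Figure D4:**
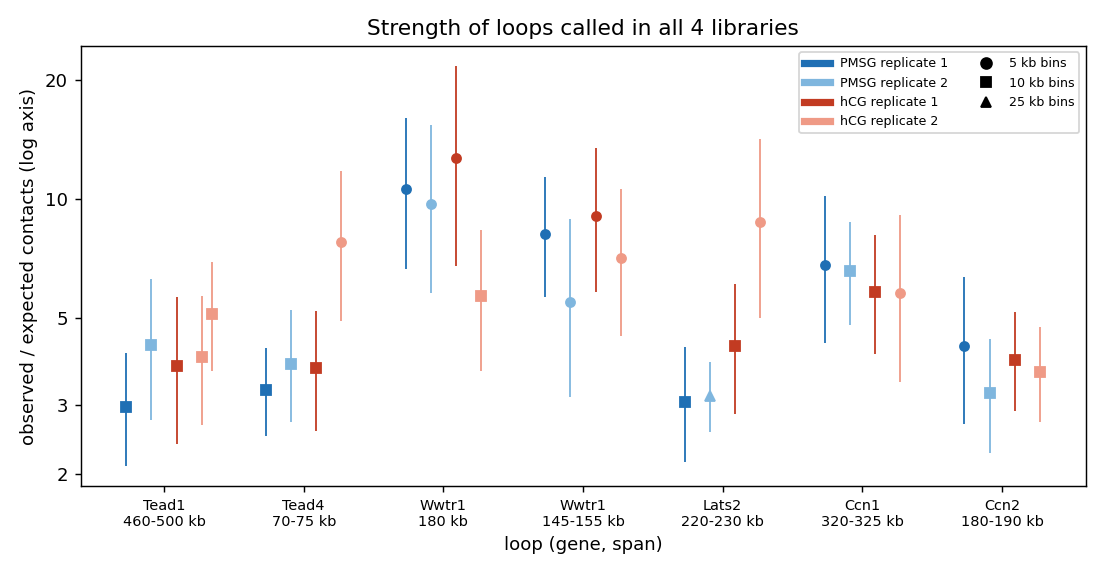
Observed over expected contacts (vertical log axis) of 7 distinct loops called in all 4 libraries, with 95% exact Poisson intervals, colour for the library and marker shape for the bin size. The intervals of the groups overlap wherever the bin sizes are the same, and hCG replicate 2 has 2 points at Tead1, where it was called at 2 nearby pixels.

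The other genes of the pathway were read from a list of 58, of which 48 had a loop (median 2.5 distinct loops a gene over the list, against 2 for all genes). A gained loop was present at 7 of the 48 (14.6%, against 9.79% of looped genes) and a lost loop at 5 (10.4%, against 7.93%). Of 33 pathway components 25 had a loop, 4 of these a gained and 1 a lost loop. Of 29 YAP and TEAD target genes 27 had a loop, 3 of these a gained and 4 a lost loop. A few genes belong to both lists of components and targets and were counted in each.

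Among upstream components, the gained loop at Nf2, the gene of merlin, an activator of the Lats kinases, held 103 contacts over 43.4 and 119 over 55.2 in the hCG libraries across 125 kb. A PMSG replicate 1 call lay 1 bin of 25 kb away, with 190 over 94.5. Map4k4, a kinase gene upstream of Lats, had a gained 50 kb loop within the gene, with 36 over 14.3 and 51 over 17.8. Fat4, an atypical cadherin gene, had a gained 1100 kb loop with 35 over 10.5 and 41 over 12.9, and a PMSG call lay 25 kb away there too. Vgll3, a TEAD cofactor gene, had a gained 200 kb loop with 63 over 26.4 and 67 over 31.0. Stk4, which encodes the kinase MST1, had the lost loop, of 40 to 50 kb, with 70 over 26.7 and 19 over 3.85 in the PMSG libraries, called in 10 and 5 kb bins.

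Among target genes, Myc had both a gained 225 kb loop (78 contacts over 32.6 and 102 over 40.3) and a lost 1625 kb loop (60 and 47 contacts, strengths 2.38 and 2.61). Areg, an epidermal growth factor-like ligand of the ovulatory response, was enclosed by 2 gained and 2 lost loops. The gained loop of 355 kb and the lost loop of 330 kb there had anchors only 22.5 kb apart, just past the matching distance. Asap1 had a gained 200 kb loop within the gene (27 over 8.01 and 36 over 9.72). Foxf2, a forkhead factor gene, had lost loops of 750 kb and of 400 to 410 kb, and Igfbp3, whose product binds insulin-like growth factors, had a lost loop of 1030 kb (26 over 4.26 and 20 over 3.05). In all, 6 of the 15 gained or lost loops at these genes (40%) had a call of the other group within 25 kb. Over all 1143 gained or lost loops the share was 10.5%. The gained 355 kb and the lost 330 kb loop of Areg are each other's closest call, and both count here. At the 10 Hippo genes it was 0 of 4, too few to set against either share.

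Other genes had the same number of anchored loops in each of the 4 libraries as the Hippo genes. Of 12363 genes with an anchored loop, 6 shared the counts of Tead1 (2, 2, 2 and 4), the closest in gene length being Ncoa2, Fars2 and Rab31. The count of 4 holds the Micalcl loop at 2 nearby pixels. The outward loop beyond Tead1 counts in PMSG replicate 2 alone, although all 4 lists held it. For Lats2 (2, 1, 3 and 3) there were 17, among them Klf13, Chsy1 and Zzz3, and for Wwtr1 (2, 3, 2 and 2) there were 44, among them Dpysl3, Nt5c2 and Ccdc146. The counts of Ccn2 (2 in every library) were shared by 306 genes, among them Rpl27a and Mgp, and those of Tead4 (1 in every library) by 1523, with Wdfy1, Aqr and Cbfa2t3 closest.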

How the data were processed

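Micro-C loops of 4 granulosa cell libraries (2 PMSG, 2 hCG, grouped by sample title) were used as the authors deposited them, 1 list per library. Per the submitters' processing notes the tools were BWA and Juicer on mm10, and per the file headers the lists were written by juicer_tools 1.22.01. The loop caller's settings and read filters were not given in the sources used here. Per the labels' protocols, 2 to 3 technical replicates were made per sample, which the lists do not separate. Each deposited list gives the observed contact count of a pixel, not normalized. Per the file headers, the expected contact signal comes from 4 local neighbourhoods, each with an FDR deposited as a q-value, all below 0.1. The deposited number of collapsed pixels and the radius are scores and were not used. A deeper library can pass more loops.

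Calls of all lists, within a list too, formed connected sets if midpoints at both anchors differed by at most 20 kb, and 3.65% of sets were wider than this. Positions count from 1. Gene ends came from a RefSeq table of GRCm38.p6 that holds no strand, exon or transcript, so anchors were not assigned to exons, introns or UTRs. All 10 members were found in it. Strand came from the promoter table for 7. The members and lists were chosen with earlier results of these data known. The text names the members, genes within 10 kb of partner anchors, list genes with a gained or lost loop, and, for members with at least 4 anchored calls, up to 3 genes with equal counts in all 4 libraries that were closest in length.

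Library values were compared by exact permutation tests. Strength was fitted with edgeR 4.0.16 in R 4.3.3, with DESeq2 1.42.0 as an alternative, and tested on simulated data. The fit planned over pixels with identical anchors held no pixel at a member, so a fit over loops of 1 bin size was added after seeing the data, as was the distance to the closest call in the other group. Alternatives were other gene windows, match distances, FDR limits, list lengths, bin sizes, expectations and scalings, and leaving out each library. Libraries were not treated as paired by replicate number. Deviations in strength from group means of same-numbered libraries correlated at -0.01 over 1366 loops. That value cannot show whether such libraries shared a mouse, day or batch. Other steps used Python 3.11.15, numpy 2.4.6, pandas 2.3.3 and scipy 1.17.1.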

Additional observations from a re-analysis of the deposited data

How the results depend on the processing

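The 4 gained or lost loops at the Hippo genes kept their class under 7 of 7 other windows, matching rules, FDR limits and list lengths tried. The gene windows do not enter the class, so those settings could not have changed it. Matching within 10 kb can only split a loop, not join it to a call of the other group. Shares over all distinct loops were not computed under the other settings, so the counts that follow have no background. The gained count stayed at 3 or 4. The lost count was 3 when both anchors had to overlap and 1 to 4 when a library was left out (4 without either PMSG library, 2 without hCG replicate 1); leaving out a library loosens both classes by construction. The difference in loops per 1000 turned from -0.122 to 0.0838 with no gene window, 0.349 with every FDR at or below 0.01, 0.153 with lists of equal length, 0.111 with enclosing loops under 300 kb and 0.118 with anchored loops alone, and ranged from -0.41 to 0.167 when a library was left out. It turned when PMSG replicate 2, the shortest list, was left out. The cause was not tested. The difference in median strength was 0.667 with 10 kb bins alone, 0.409 with the largest of the 4 expectations and 0.31 to 1.11 when a library was left out. It was -0.347 with 25 kb bins alone, chosen after seeing the data.

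The 58-gene list had 4 genes with a gained loop at the stricter FDR, 4 with matching within 50 kb and 12 with overlapping anchors, and 8 to 17 without a library (15 without PMSG replicate 1, 16 and 17 without hCG replicates 1 and 2). Genes with a lost loop numbered 3 with matching within 50 kb and 7 to 19 without a library. They numbered 19 without PMSG replicate 2 and 9 without hCG replicate 2. These settings apply to the loops of all genes, and the shares over all looped genes were not computed under them. Whether the shifts were particular to this list was therefore not tested. The 435-pixel fit called 0 to 2 pixels when a library was left out, 2 of them without PMSG replicate 2. The log2 difference of the outward loop beyond Tead1 turned to -0.017 with the bottom-left expectation, -0.0572 with TMM scaling and -0.0644 with DESeq2 size factors, and ranged from -0.00946 (without hCG replicate 2) to 0.375 when a library was left out. That of the interior loop of Wwtr1 ranged from -0.0287 (without PMSG replicate 2) to 0.537. In the fit over 1366 loops, 3, 1 and 2 loops passed with the bottom-left, horizontal and vertical expectations, none of them at a Hippo gene. Leaving out PMSG replicate 2 or either hCG library also changed how many passed, again with none at a Hippo gene.

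A replicate block left the differences at -0.122 (exact permutation p = 1) and 0.71 (exact permutation p = 0.5). With 2 libraries per group, 0.5 is the smallest p that the blocked permutation allows, so it could not have passed 0.05. The strength fits with a block called 0 loops, as did those without it. Pixels held a median of 30 to 38 contacts at the Hippo genes, which limits single strengths.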

Other observations

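Tead1 lay within a longer loop that the 500 kb limit left out. It joined 112375001 to 112400000 with 113125001 to 113150000 over 750 kb, and was called in both PMSG libraries, with 52 contacts over 21.9 (2.37) and 34 over 10.4 (3.26), and in neither hCG list. Its anchors lay at, or in the bin next to, the outer anchors of the Micalcl loop and of the outward loop beyond Tead1, both of which were called in all 4 libraries. The lost 375 kb loop of Wwtr1 has the same layout, with an outer loop called in PMSG alone over inner loops called in every library. This likeness was noticed after the loops were seen and was not tested.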
